A study of Mus musculus with 3 samples.

Results

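The Gse1 locus was taken as the stretch of mouse chromosome 8 from 122740001 to 123115000 (mm9, counting from 1, 375.0 kb). Its members were all deposited peaks that overlapped this stretch, 123 H3K27ac regions of 93413 and 70 H3K4me1 regions of 155027. The stretch makes up 0.0141% of the mm9 chromosomes. Its members were chosen by the positions of the deposited peaks, with results of these same peak lists known, and one of its joined acetylated domains is among the longest of the genome, so the values below are descriptions with no test. That the stretch holds Gse1 was taken as given and not checked against an mm9 annotation. Fold values are the authors' own and give the height of a peak's summit over the background set by the peak caller, whose source is not given in the sources used here. No member crossed an edge of the stretch. The H3K27ac regions next to the edges lay 8.68 kb inside (5.02-fold) and 27.3 kb outside (2.95-fold) on the low side, and 2.06 kb inside (10.05-fold) and 32.3 kb outside (3.55-fold) on the high side. H3K4me1 regions lay close to both edges, 701 bp inside (4.98-fold) and 289 bp outside (3.16-fold) on the low side, and 751 bp inside (5.05-fold) and 464 bp outside (5.75-fold) on the high side.

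The cells were hematopoietic stem cells sorted as SP-KSL-CD150+ from bone marrow of C57BL/6 mice aged 24 months, with no treatment or mutation named in their labels. KSL stands for cells without lineage markers that carry Kit and Sca-1, SP is the usual name for a side population that effluxes dye, and CD150 is a surface protein of stem cells. A single chromatin immunoprecipitation library was made for H3K27ac (antibody ab4729) and 1 for H3K4me1 (antibody ab8895), both labelled as technical replicates of biological replicate 1, and the accompanying input library was not analysed here. With 1 library per mark, no value below has a replicate check, and the number of mice behind each library is not stated in the sources used here. The identity of the sorted cells was not checked against marker genes, because no mm9 annotation was used here.

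Gse1 encodes genetic suppressor element 1, a coiled-coil protein that in human cells is found in complexes with the histone demethylase LSD1, the corepressor CoREST and histone deacetylases. H3K27ac is laid down by acetyltransferases such as CBP at promoters and enhancers in use. H3K4me1 is written by methyltransferases of the MLL family over enhancers, active or not, and beside the start sites of active genes, where the start itself usually carries H3K4me3 in its place. Long runs of acetylated enhancers around 1 gene are often described as super-enhancers or stretch enhancers and are frequent at genes that mark a cell's identity. No RNA level of Gse1 was measured in these libraries.

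The RefSeq promoter table, on build GRCm38.p6, held 3 start sites of Gse1, all on the plus strand of chromosome 8. The 250 bases before each start are shown because they are the promoters of the gene that names the locus, with matches to the GC box (GGGCGG on either strand) in capitals. They lie at chr8:120488616-120488865, chr8:120535607-120535856 and chr8:120537159-120537408 of that build, where the second start is 47.0 kb after the first and the third 1.55 kb after the second. They were not placed on mm9, so no peak is assigned to them.
Gse1 start 1: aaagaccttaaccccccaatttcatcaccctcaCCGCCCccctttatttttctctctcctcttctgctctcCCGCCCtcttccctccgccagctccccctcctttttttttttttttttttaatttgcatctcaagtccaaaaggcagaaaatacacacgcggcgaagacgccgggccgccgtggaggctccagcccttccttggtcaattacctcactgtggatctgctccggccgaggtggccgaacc
Gse1 start 2: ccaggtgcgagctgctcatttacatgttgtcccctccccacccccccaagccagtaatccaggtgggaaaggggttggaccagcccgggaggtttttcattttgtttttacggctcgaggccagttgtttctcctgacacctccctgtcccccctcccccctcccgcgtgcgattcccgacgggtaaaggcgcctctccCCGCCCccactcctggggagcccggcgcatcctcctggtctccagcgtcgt
Gse1 start 3: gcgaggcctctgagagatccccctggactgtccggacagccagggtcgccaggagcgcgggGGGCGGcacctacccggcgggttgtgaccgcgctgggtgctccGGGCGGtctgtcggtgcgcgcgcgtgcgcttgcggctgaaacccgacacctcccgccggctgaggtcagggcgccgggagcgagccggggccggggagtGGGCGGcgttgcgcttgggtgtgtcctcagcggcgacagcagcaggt
The first held 13 CG dinucleotides and 54.0% G and C, the second 15 and 63.6%, and the third 32 and 74.8%, against medians of 6 and 52.4% over the 32851 promoters of the table. Of those promoters, 31.5%, 27.3% and 4.58% held at least as many CG dinucleotides as the first, the second and the third. The GC box occurred 2, 1 and 3 times, and 32.7% of all promoters held it at least once. Short motifs of blood regulators, searched on both strands, had no match in the 3 sequences: CCGGAA of ETS factors (in 12.03% of all promoters), AGATAA of GATA factors (9.99%) and TGTGGT of RUNX factors (14.04%). In the same assembly the nearest genes in order are A330074K22Rik, a long non-coding RNA gene, before Gse1 and Gins2, a subunit of the GINS complex of DNA replication, after it. A further 5 genes are listed inside Gse1, 4 for long non-coding RNAs and Mir7687.

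The locus was almost filled by H3K4me1, and a much smaller part of it was acetylated. H3K4me1 regions covered 298.4 kb or 79.6% of the stretch, against 6.54% of all mm9 chromosomes, 12.2 times the share. H3K27ac regions covered 85.8 kb or 22.9%, against 2.11%, 10.9 times the share. Both marks together lay on 21.1% of the stretch, H3K4me1 alone on 58.5%, H3K27ac alone on 1.82% and neither mark on 18.6%. The longest stretches with neither mark ran from 123096866 to 123111388 (14.5 kb), from 122741317 to 122747267 (5.95 kb) and from 122986052 to 122988902 (2.85 kb). The first of these lies near the high end of the locus and the second near the low end. The third is the longest one inside the acetylated domain described below.

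**Figure D1:**
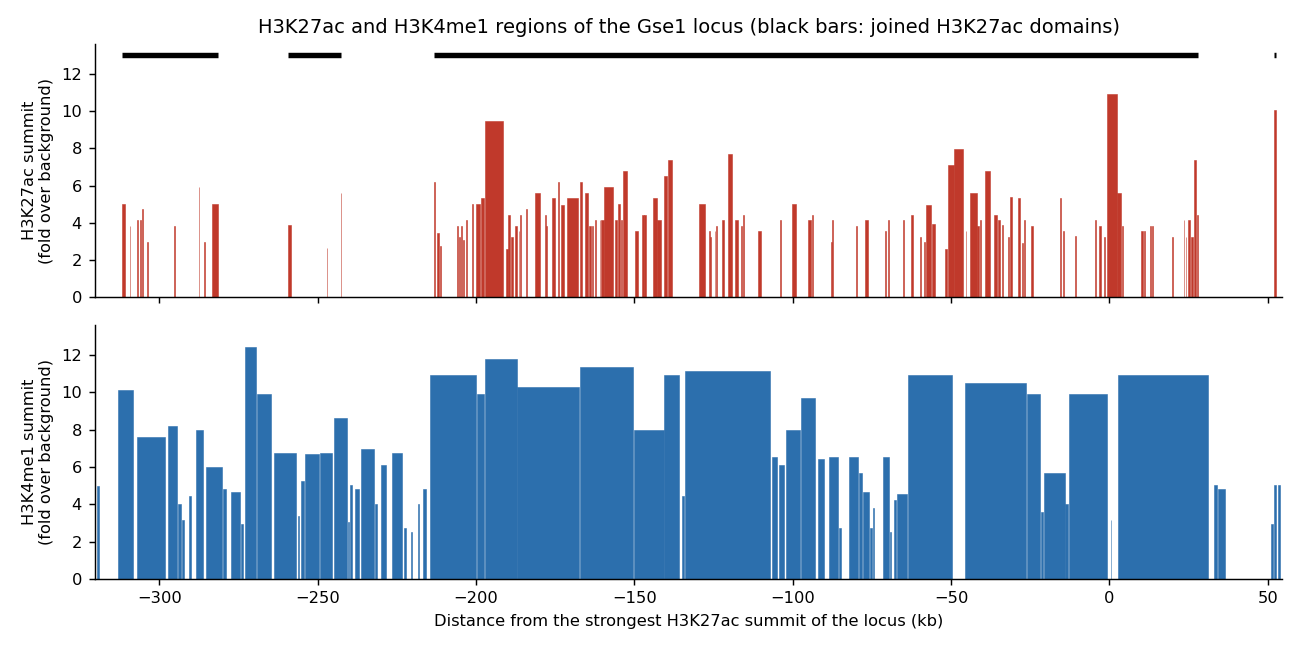
Regions of H3K27ac (top) and H3K4me1 (bottom) in the Gse1 locus, each drawn over its width at the height of its summit fold over background, against distance in kb from the strongest H3K27ac summit of the locus. Black bars are the 4 joined H3K27ac domains, and the longest spans 241.3 kb, where H3K4me1 blocks stand side by side under many narrow acetylated regions.

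H3K27ac regions joined over gaps of up to 12.5 kb gave 4 domains in the locus. The main domain ran from 122847232 to 123088496 (241.3 kb) and held 109 of the 123 H3K27ac regions, with 78.9 kb acetylated (32.7% of its span) and 89.3% of its span in H3K4me1. Below it lay a domain of 10 regions from 122748682 to 122778831 (30.2 kb, 5.11 kb acetylated) and one of 3 regions from 122801030 to 122817931 (16.9 kb, 1.29 kb acetylated). Above it lay a single region from 123112439 to 123112938. Neighbouring H3K27ac regions in the main domain lay close together, with 61 of the 108 gaps under 1 kb and the longest gap 8552 bp. The median distance between neighbouring summits there was 1570 bp (quartiles 865 and 2877 bp), against 5308 bp over all H3K27ac summits (quartiles 1590 and 18973 bp). Over the whole stretch it was 1762 bp. Joining sets a limit on the gaps within a domain, so short distances there follow in part from the way it was built. The main domain ranked 5 of 30221 by acetylated length. That rank depends on how domains are made: it was 17 with gaps of up to 5 kb joined, 18 with peaks of a −log10 q of at least 5 and 18 by fold times width, but 4 by span.

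Acetylation varied several fold along the main domain, and H3K4me1 covered most of each bin there. In bins of 25 kb, H3K27ac covered 47.5% from 122865001 to 122890000 and 57.1% from 122890001 to 122915000, the highest share of the 15 bins. It dropped to 13.1% from 122965001 to 122990000, where H3K4me1 covered 60.5%. It stood at 36.2% and 36.7% in the next bins, from 122990001 to 123040000. H3K4me1 covered 98.99% and 96.7% of the first pair of these bins, and 100% of the bin from 123065001 to 123090000, where H3K27ac covered 18.3%. The H3K4me1 share of the 15 bins ran between 26.0 and 100%, and that of H3K27ac between 0.956 and 57.1%.

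**Figure D2:**
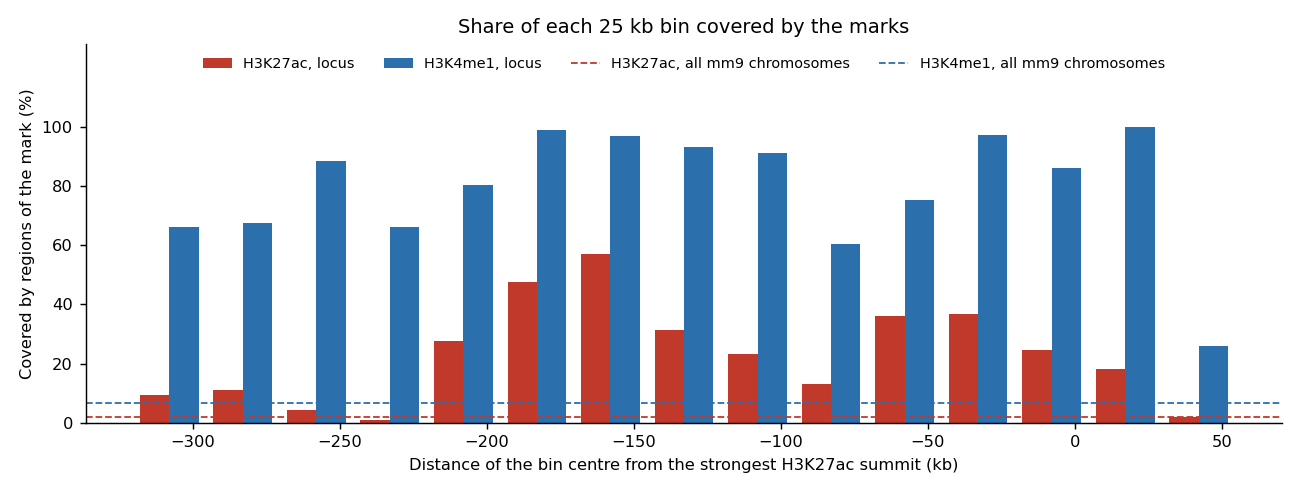
Share in percent of each 25 kb bin of the Gse1 locus covered by regions of H3K27ac (red) and H3K4me1 (blue), against the distance of the bin's centre in kb from the strongest H3K27ac summit. Dashed lines are the shares over all mm9 chromosomes (2.11% and 6.54%), and H3K27ac passes 20% only in bins that the main domain overlaps.

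The low part of the locus carried H3K4me1 with less acetylation than the main domain, though more than the genome as a whole. From 122740001 to the start of the main domain (107.2 kb), H3K4me1 covered 69.9% and H3K27ac 5.96%, against 89.3% and 32.7% in the main domain. Over all mm9 chromosomes the shares were 6.54% and 2.11%, so the low part had 10.7 and 2.83 times those shares. The 31 H3K4me1 regions lying wholly in this low part included 8 that met an H3K27ac region (25.8%, exact 95% binomial interval 11.9 to 44.6%). In the main domain 23 of 34 did (67.6%, interval 49.5 to 82.6%), and over all H3K4me1 regions the share was 33.6%. The main domain was built from H3K27ac regions, so a higher share there follows from the way it was drawn. Of the H3K4me1 length, 8.14% was acetylated in the low part and 33.7% in the main domain, against 21.2% in all.

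The H3K4me1 region of highest fold in the locus carried no H3K27ac peak. It lay in the low part from 122787618 to 122790860 (3243 bp), with a summit of 12.4-fold and 58 reads, and ranked 94th of 155027 by fold. Its neighbour from 122791245 to 122795754 (4510 bp, 9.94-fold, 50 reads) also had none, and neither had the region from 122824087 to 122828285 (4199 bp, 6.95-fold, 32 reads), the third by fold among H3K4me1 regions without H3K27ac. The first pair lay in a 22.2 kb stretch free of H3K27ac peaks, from 122778832 to 122801029, of which H3K4me1 covered 79.2%. The third lay in a 29.3 kb stretch from 122817932 to 122847231, of which H3K4me1 covered 58.1%. The 12.4-fold region did not hold the most summit reads. The region from 122806408 to 122810887 (6.68-fold), also without H3K27ac, held 62, where the local background was 2.25 times that of the genome. The region from 122873447 to 122892844 (10.3-fold), which met 10 H3K27ac regions, held 60. The order of the highest folds is within counting error, as given below. The weakest H3K27ac summit of the whole list held 8 reads, so a weaker acetylation was not detectable at this depth. H3K4me1 regions without H3K27ac were not more frequent in the locus than elsewhere, with 38 of 70 meeting none, against 102942 of 155027 in the whole list. The other 32 (45.7%, interval 33.7 to 58.1%) met one, against 33.6% of all. With only peaks of a −log10 q of at least 10 this order turned, with 24.4% of 41 H3K4me1 regions meeting H3K27ac, against 28.3% of all at that limit. Of the 38, 13 were 1 kb wide or more. The median width of the 38 was 699 bp, against 4511 bp for the 32 that did meet one, and by chance of position alone a wide region is more likely to meet a peak.

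The H3K4me1 of the locus came in very wide blocks. In all, 9 regions were 10 kb wide or more, which is 12.9% of the 70, against 0.295% of all H3K4me1 regions (458 of 155027). They held 161.3 kb, or 54.0% of the H3K4me1 length of the locus, against 3.66% in all. The widest ran from 123062947 to 123091365 (28.4 kb, 10.95-fold) and ranked 5 by width in the whole list. The next ran from 122926352 to 122953107 (26.8 kb, 11.2-fold), from 122873447 to 122892844 (19.4 kb, 10.3-fold), from 123014879 to 123034095 (19.2 kb, 10.5-fold) and from 122893132 to 122909900 (16.8 kb, 11.4-fold). The other wide regions were 14.6, 13.975, 12.1 and 10.1 kb across. All 9 met the main domain and H3K27ac regions, as did 99.6% of the 458, and each met between 5 and 13 H3K27ac regions (median 10), against a median of 7 over all 458. Together they met 85 of the 123 H3K27ac regions. Among the 61 narrower H3K4me1 regions 37.7% met H3K27ac, against 33.4% of all narrower H3K4me1 regions.

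H3K4me1 was also strong here, whereas the middle of the H3K27ac range was close to that of the whole list. The median H3K4me1 summit was 5.85-fold (quartiles 4.26 and 8.16, n = 70), against 4.12-fold over all regions (quartiles 3.16 and 5.69). Of the H3K4me1 regions 11, or 15.7%, reached 10-fold, against 1.12% of all, and 42, or 60%, reached 5-fold, against 34.1% of all. The highest by fold was the 12.4-fold region without H3K27ac named above. Next came 3 of the wide blocks, at 11.8-fold from 122863111 to 122873194, 11.4-fold and 11.2-fold. They were followed by 4 regions tied at 10.95-fold, among them the block from 122845912 to 122860463. The summits of all of these held 51 to 58 reads. The exact Poisson 95% intervals of the lowest (38.0 to 67.1 reads) and the highest (44.0 to 74.98 reads) overlap, so their order is within counting error. For H3K27ac the middle summit of the locus was 4.14-fold (quartiles 3.70 and 5.02, n = 123), against 3.86-fold (quartiles 3.25 and 5.32), a difference of less than the 0.296-fold that 1 read is worth. A median H3K27ac summit held 13 reads in the locus and 13 reads over the whole list. Of the H3K27ac regions 2, or 1.63%, reached 10-fold, against 7.77% of all. A fold of 5 was reached by 35, or 28.5%, against 28.8% of all. Regions of both marks were wider here than in the whole list, those of H3K4me1 more so. The median H3K27ac region was 461 bp against 355 bp in all (1.30 times), and the median H3K4me1 region 1951 bp against 687 bp in all (2.84 times). A width of 1 kb was reached by 24 H3K27ac regions, or 19.5%, against 15.2% of all.

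**Figure D3:**
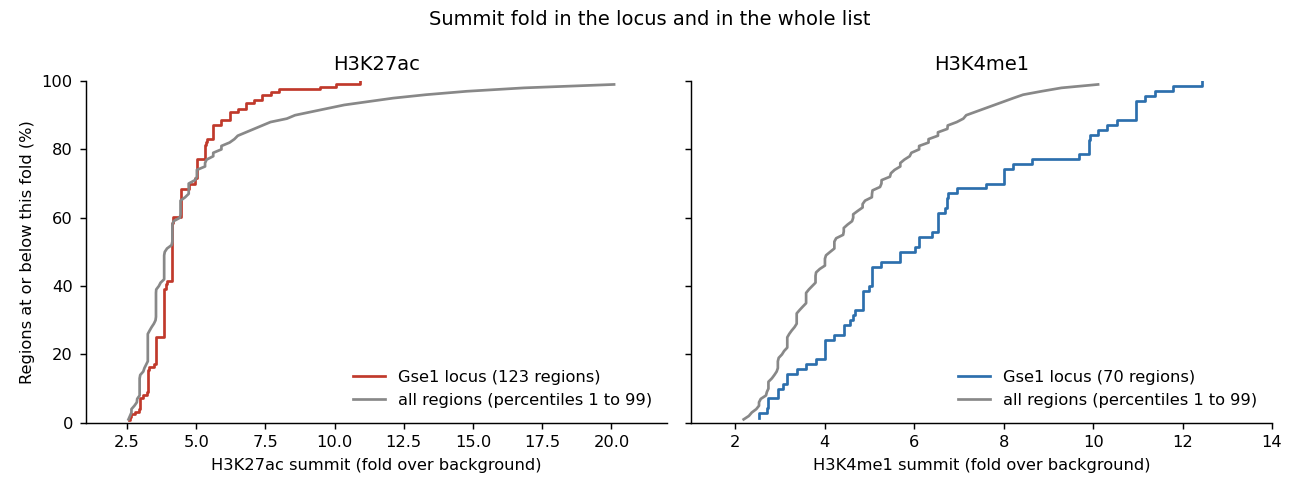
Share in percent of regions at or below each summit fold over background, for H3K27ac (left) and H3K4me1 (right), in the Gse1 locus (coloured steps, 123 and 70 regions) and in the whole list (grey, percentiles 1 to 99). The H3K4me1 curve of the locus lies to the right of the grey one, and the H3K27ac curve ends at 10.9-fold while the list goes on beyond.

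The 5 strongest H3K27ac regions stood apart from each other along the locus. The highest summit, 10.9-fold with 36 reads, belonged to a region from 123059598 to 123062614 (3017 bp). The second was the single region above the main domain, from 123112439 to 123112938 (500 bp, 10.05-fold, 33 reads). The third, from 122863155 to 122868838, was also the widest H3K27ac region of the locus (5684 bp, 9.46-fold, 31 reads) and ranked 120th of 93413 by width. The next pair lay from 123011443 to 123014303 (2861 bp, 7.98-fold, 26 reads) and from 122939864 to 122941305 (1442 bp, 7.68-fold, 25 reads). The Poisson intervals of the first (25.2 to 49.8 reads) and the last of these (16.2 to 36.9 reads) overlap, so these ranks are within counting error. The other regions among the 5 widest were weaker, at 5.34-fold from 122889239 to 122892708 (3470 bp) and 5.91-fold from 122900880 to 122903669 (2790 bp). Width and fold went together with a Spearman rho of 0.562 over the 123 H3K27ac regions, against 0.659 over the whole list, and 0.882 over the 70 H3K4me1 regions, against 0.763. These points share a library and, in part, a stretch of chromosome, so they are not independent.

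Nearly every acetylated region of the locus lay in H3K4me1. Of the 123 H3K27ac regions, 121 overlapped an H3K4me1 region by 1 bp or more (98.4%, exact 95% binomial interval 94.3 to 99.8%), against 71.7% of all H3K27ac regions. The summit itself was inside H3K4me1 in 119 (96.7%, interval 91.9 to 99.1%), against 58.2% of all. H3K4me1 was present at the summit and at 1 kb to both sides in 104 (84.6%), against 23.4% of all. Of the acetylated length, 92.0% was in H3K4me1 in the locus, against 65.9% in all. Where most of a stretch is H3K4me1, overlap by position alone is frequent, and these shares do not correct for it. The intervals cover counting error only, and neighbouring regions are not independent samples. With only peaks of a −log10 q of at least 10, 12 of 14 H3K27ac regions met H3K4me1 (85.7%), against 78.6% of all H3K27ac regions at that limit.

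In all, 4 acetylation summits of the locus lay outside H3K4me1, and the strongest H3K27ac region was one of them. Its summit at 123060385 stood in a break between H3K4me1 blocks of 12.1 kb and 28.4 kb, which left 3186 bp between them. One H3K4me1 region of 267 bp and 3.16-fold lay in that break, 333 bp from the summit, and the 12.1 kb block ended 625 bp away. Another H3K27ac region, the 7.98-fold one, with its summit at 123011996, filled most of a 4068 bp break from 123010811 to 123014878 between blocks of 13975 bp and 19.2 kb, and met no H3K4me1 region at all. This held for 2 of the 123 regions, against 28.3% of all H3K27ac regions. The region before it, from 123009504 to 123011213 (1710 bp, 7.10-fold), reached into the same break. Its summit held 43 reads, the most among the H3K27ac regions of the locus, where the local background was 2.19 times that of the genome. The 2 summits in the breaks were 48.4 kb apart. The other summits outside H3K4me1 were weaker, at 122860836 (5.02-fold, 14 bp from an H3K4me1 region) and at 122774742 (2.95-fold, 9 reads), which lay in a 1041 bp break and was the other region that met no H3K4me1. Of the 4 summits outside H3K4me1, only these last 2 had H3K4me1 at exactly 1 kb on both sides. Summits with H3K4me1 on both sides and not at the summit were thus 1.63% of 123, against 5.85% of all H3K27ac summits. That share is limited by how few summits lay outside H3K4me1 here, 4 of 123 against 39084 of 93413 in the whole list.

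**Figure D4:**
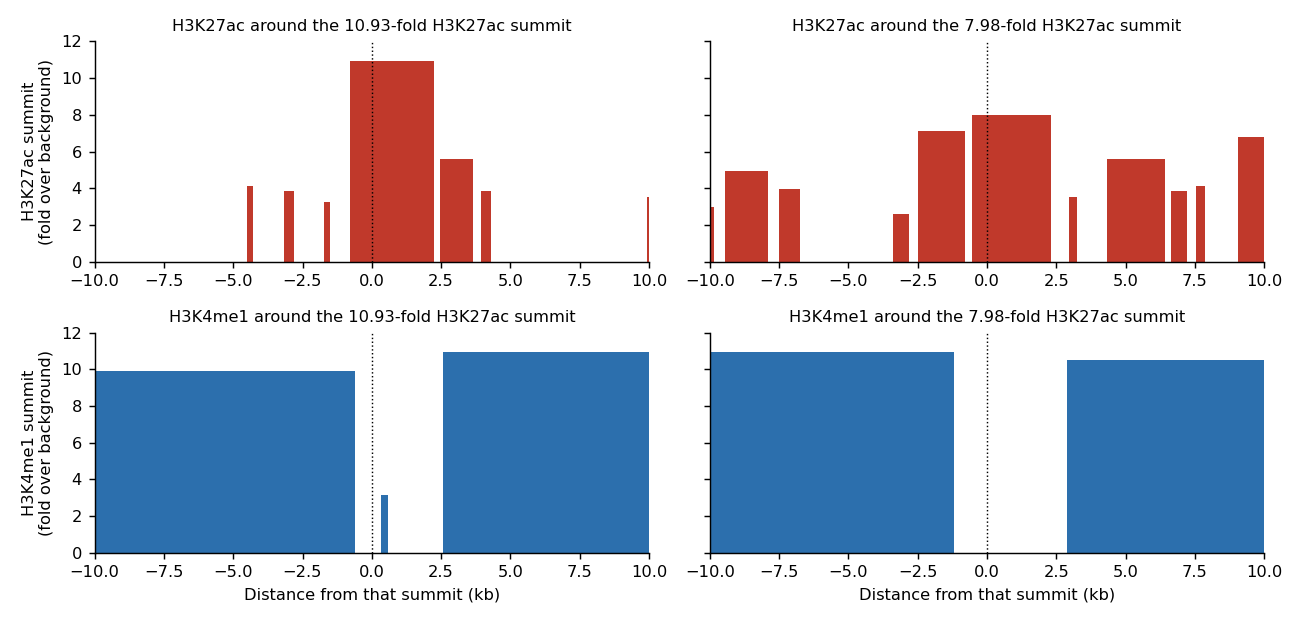
Regions of H3K27ac (top) and H3K4me1 (bottom) within 10 kb of the 10.93-fold (left) and the 7.98-fold (right) H3K27ac summit, drawn at the height of their summit fold over background against distance in kb from that summit (dotted line). Wide H3K4me1 blocks end on either side of both summits, and a 267 bp H3K4me1 region lies beside the stronger one.

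Compared with the other 9 of the first 10 H3K27ac domains, the Gse1 domain had a low highest acetylation summit and much H3K4me1, while its median summit was within their range. Its highest H3K27ac summit was 10.9-fold, against 13.3 to 26.3-fold in the other 9, whose median was 18.9-fold. Its median H3K27ac summit was 4.14-fold, against 3.84 to 5.17-fold. The 36 reads behind the highest summit of the Gse1 domain have an interval of 25.2 to 49.8. That interval overlaps those of the highest summits of 5 of the others, which alone does not show that the counts are alike. For the domains ranked 4 and 6, with 64 and 63 reads, the intervals begin at 49.3 and 48.4 and overlap only at the tip. The interval of the Gse1 domain does not overlap the 70.6 to 108 reads of the first domain, on chromosome 6. A single region of the Gse1 domain reached 10-fold (0.917% of 109), against 2 to 9 regions in each of the others. H3K4me1 covered 89.3% of its span, against 43.8 to 88.2% (median 59.6%), and its median H3K4me1 region was 2914 bp wide, against 670 to 1804 bp. It held 9 H3K4me1 regions of 10 kb or more, against 0 to 7. Of its acetylation summits 97.2% were inside H3K4me1 (interval 92.2 to 99.4%), against 66.0 to 96.9%, and the values of the first and second domains, 96.9% and 96.0%, lie within that interval. By other measures of the same overlap it was not the highest, since 91.9% of its acetylated length was in H3K4me1, against 70.7 to 94.5%, and 99.1% of its H3K27ac regions met H3K4me1, against 74 to 99.2%. Only 33.7% of its H3K4me1 length was acetylated, the second lowest of the 10, where the others had 30.1 to 73.2%. In number of regions it ranked 4, with 109 H3K27ac regions against 46 to 130. Among the 303 domains in the top 1% by acetylated length, 48 had a lower highest summit than the Gse1 domain. In that set 3 domains had a higher share of span in H3K4me1, and 0 had a higher share of summits inside H3K4me1.

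**Figure D5:**
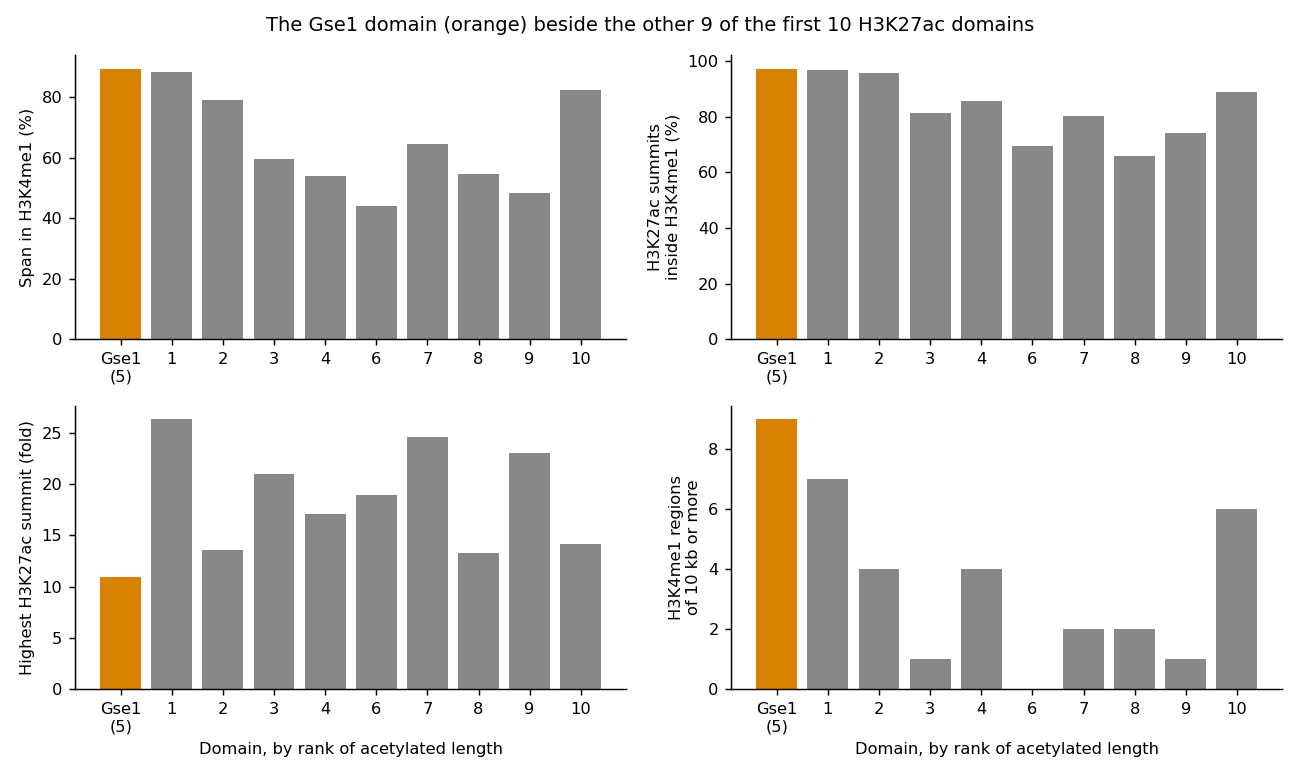
The Gse1 domain (orange, left) and the other 9 of the first 10 H3K27ac domains (grey, labelled by rank of acetylated length), with the share of span in H3K4me1 in percent, the share of H3K27ac summits inside H3K4me1 in percent, the highest H3K27ac summit as fold over background and the number of H3K4me1 regions of 10 kb or more. The Gse1 domain has the lowest of the 10 highest summits and the most wide H3K4me1 regions.

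The amount of H3K4me1 also stood out at the scale of the whole stretch. Among 7066 tiles of 375.0 kb laid from the first base of each mm9 chromosome, none held as much H3K4me1 as the 298.4 kb of the locus, where the highest tile had 221.3 kb and the median 12.4 kb. For acetylated length 4 tiles reached the 85.8 kb of the locus, and the highest had 126.4 kb. Fixed tiles can split a domain, whereas the chosen stretch holds its domain whole. Windows of the same length centred on each of the other 302 domains in the top 1% by acetylated length gave at most 230.1 kb of H3K4me1 (median 100.6 kb), and 5 of them reached the acetylated length of the locus. None of them had 9 H3K4me1 regions of 10 kb or more, and the most was 7. Unlike these windows, the stretch of the locus is not centred on its main domain. It has 107.2 kb before that domain and 26.5 kb after it. These comparisons rank the values that brought the locus to notice and are no test.

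Local background was not raised in the locus more often than elsewhere. A background more than 5% above the genome-wide level was found at 19 of the 123 H3K27ac summits (15.4%), against 26.2% of all, and at 12 of the 70 H3K4me1 summits (17.1%), against 36.8% of all. The highest was 2.19 times the genome-wide level for H3K27ac and 2.25 times for H3K4me1. Without the regions of raised background in either list, 84.6% of the H3K27ac regions of the locus met H3K4me1, against 50.2% of all. That setting also removes partners, among them the 19.4 kb block from 122873447 to 122892844.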

How the data were processed

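Peak lists of 2 chromatin immunoprecipitation libraries were used, 1 for H3K27ac and 1 for H3K4me1, grouped by their sample titles. The submitters' processing notes name the aligner Bowtie2 2.0.6, the peak caller MACS2 2.0.10.20131216 and the genome build mm9. The options and the control of the peak caller are not given in the sources used here. For each peak the deposited lists give a fold of the summit over local background, the −log10 p and −log10 q of the summit, and a score that is the −log10 q times 10 without its decimals and was not used. These values are the authors' own and come from 1 library each.

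Members were chosen with earlier results of these data known, and so were the regions named: by mark, the 5 of highest fold and the 5 widest, the 3 strongest of each mark without the other, all domains and the 3 longest empty stretches. Regions were called meeting when they shared at least 1 bp. Domains are H3K27ac regions joined wherever the gap was at most 12.5 kb. Reads at a summit and the local background were solved from fold and −log10 p, with fold as (reads + 1)/(background + 1) and p as the Poisson probability of more reads. A whole number of reads gave every deposited −log10 p within 0.001, with genome-wide backgrounds of 2.38 reads for H3K27ac and 3.75 for H3K4me1. The calculation was checked on simulated data made with the same formulas. Intervals are exact (Clopper-Pearson for shares, Poisson for reads) and reflect counting error alone, with 1 library per mark. They treat reads and regions as independent. Reads that carry no molecular identifier may stem from 1 molecule, which the intervals do not allow for. Chromosome lengths came from GenomeInfoDb 1.38.1. Sequences and the order of genes came from RefSeq tables on GRCm38.p6. The software was Python 3.11.15 with scipy 1.17.1, pandas 2.3.3, matplotlib 3.10.9 and numpy 2.4.6.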

Additional observations from a re-analysis of the deposited data

How the results depend on the processing

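Of 43 alternative values, 22 moved, by leaving the 95% interval (shares and medians) or by a factor over 1.5 (counts, ranks and covered shares). Some settings fix the direction of a move. A q limit can only lower counts and cover, joining can only lower counts, and counting partners within 1 kb can only raise a share. The total of 22 is therefore no measure of robustness. The loose and the strict q limit kept peaks whose −log10 q was 5 or more and 10 or more. The cause of the moves was not tested beyond what each setting removes. The setting without raised background was chosen after seeing the data. The share of H3K27ac regions of the locus that met H3K4me1 (98.4%) was 85.7% under the strict q limit, 100% when a partner within 1 kb counted as well and 84.6% without regions of raised background. The share of H3K4me1 regions that met H3K27ac (45.7%) was 24.4% under the strict q limit, below the 28.3% of all H3K4me1 regions at that limit where it was above the 33.6% of all without it, 59.1% with regions joined over 1 kb and 67.6% in the main domain. Summits inside H3K4me1 (96.7%) made up 78.6% under the strict q limit and 82.7% without raised background. That share over all H3K27ac summits was not computed at these settings, so a drop in the whole list cannot be told apart. The share for joined H3K4me1 regions and the counts below likewise have no whole-list value at the same setting. The 123 H3K27ac regions became 49 and 14 under the loose and the strict q limit, and 60 when joined over 1 kb. Their cover fell to 14.9% and 6.08% of the stretch, against 22.9%, and their median fold was 5.32 and 7.24, against 4.14. The 70 H3K4me1 regions became 41 under the strict q limit, 22 when joined over 1 kb and 34 in the main domain, and under the strict limit their median fold was 8.003, against 5.85. H3K4me1 cover stayed at 78.2% and 74.1% under the 2 limits. The domain's rank of 5 became 17 when only gaps to 5 kb were joined, 18 under the loose q limit and 18 by fold times width. No paired analysis was possible because there is a single library for each mark. The median summit in the locus rests on 13 reads for H3K27ac and 29 for H3K4me1, which limits the precision of single fold values.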

Other observations

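Both marks covered less of the 100 kb on each side than of the locus as a whole. The last 25 kb bin of the locus was itself down to 2% H3K27ac and 26.0% H3K4me1. Over all mm9 chromosomes the shares were 2.11% and 6.54%. In the 100 kb before the locus, from 122640001 to 122740000, 2 H3K27ac and 15 H3K4me1 regions covered 0.847% and 10.8%, against 22.9% and 79.6% in the whole locus. In the 100 kb after it, from 123115001 to 123215000, 6 H3K27ac and 20 H3K4me1 regions covered 3.02% and 19.1%. The strongest H3K27ac region there lay from 123191255 to 123192963 at 17.1-fold with 57 summit reads, above every H3K27ac region of the locus. Its summit lay outside H3K4me1, with H3K4me1 at 1 kb on both sides.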
